A study of Mus musculus with 4 samples.

Results

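The spots described here are Visium spots with high levels of Zic1, Prkcd and Trpc4, genes that together mark the lateral septum of the mouse forebrain, and without a high level of Tcf7l2, which marks the thalamus. They were chosen by measured values. Each of the 3 markers was taken as the log of counts per 10000 in spots with at least 500 counts and turned into a z-score over all kept spots, and a member spot had a mean z of at least 1 for the markers and a z under 1 for Tcf7l2. The rule found 618 of 12601 kept spots, or 4.90% of them (exact Clopper-Pearson 95% interval 4.53 to 5.30). A Visium spot is a small area of tissue that can hold several cells, so the members are areas with these transcripts and not cells of one type.

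The sections were coronal, formalin-fixed and paraffin-embedded slices through the striatum of 4 mouse brains. Of the 4 mice, 2 were wild type (biological replicates 1 and 2) and 2 were heterozygous for Celsr3 (biological replicates 1 and 2), none was treated, and the age, sex and strain are not given in the labels used here. Celsr3 encodes a large adhesion receptor with cadherin repeats and a membrane domain like that of G protein-coupled receptors, and the study asked how its reduced dosage bears on the striatum and its dopamine system. The spot names end in 1, 2, 3 or 4, and this ending matches no label of a mouse, so the 4 barcode sets stand for 4 sections whose genotypes are not known here. No comparison between genotypes was made, no p-value is given, and each value stands for its own barcode set. The 95% intervals cover counting error only, and the spots of a set are not replicates of a condition.

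The lateral septum is a limbic nucleus between the lateral ventricles whose neurons are mostly GABAergic. It receives dense input from the hippocampus, sends output to the hypothalamus and midbrain, and is known for receptors for stress, feeding and social peptides. Zic genes encode zinc finger transcription factors that pattern the midline of the developing forebrain. Trpc4 encodes a calcium-permeable channel opened by receptors that act through Gq proteins and phospholipase C, and Prkcd encodes protein kinase C delta, which is activated by the diacylglycerol made in the same pathway.

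The Zic genes are the family that the rule and the other septal markers share, and they were high in the members together, so the promoter windows held for 3 of them are shown. By the RefSeq gene table for GRCm38.p6, Zic1 and Zic4 are neighbours on opposite strands of chromosome 9, and Zic2 and Zic5 are neighbours on chromosome 14. The windows run 5′ to 3′ on the strand of the gene from 250 bases before to 50 after the annotated start, at chr9:91365719-91366018 (minus strand) for Zic1, chr9:91368722-91369021 (plus strand) for Zic4 and chr14:122465609-122465908 (minus strand) for Zic5. Capitals mark the GC box GGGCGG on either strand (CCGCCC).
Zic1: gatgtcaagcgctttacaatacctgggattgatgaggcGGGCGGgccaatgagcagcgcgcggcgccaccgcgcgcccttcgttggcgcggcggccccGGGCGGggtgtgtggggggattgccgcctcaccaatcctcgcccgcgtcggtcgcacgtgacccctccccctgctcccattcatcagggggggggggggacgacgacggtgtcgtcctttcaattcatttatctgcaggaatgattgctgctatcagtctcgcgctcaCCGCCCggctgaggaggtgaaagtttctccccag
Zic4: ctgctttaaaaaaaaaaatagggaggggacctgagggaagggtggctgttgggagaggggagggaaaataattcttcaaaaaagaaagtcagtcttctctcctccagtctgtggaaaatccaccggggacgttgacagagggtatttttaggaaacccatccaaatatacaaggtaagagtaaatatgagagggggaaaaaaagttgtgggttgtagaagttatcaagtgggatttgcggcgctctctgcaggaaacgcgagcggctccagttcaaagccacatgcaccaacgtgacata
Zic5: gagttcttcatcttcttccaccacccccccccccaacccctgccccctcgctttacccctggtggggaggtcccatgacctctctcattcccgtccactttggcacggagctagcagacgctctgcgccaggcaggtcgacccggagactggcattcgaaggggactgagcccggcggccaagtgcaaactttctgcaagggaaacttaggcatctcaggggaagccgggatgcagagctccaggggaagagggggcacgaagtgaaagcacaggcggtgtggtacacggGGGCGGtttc
The Zic1 window held 3 GC boxes, the Zic5 window 1 and the Zic4 window 0, and 35.7% of 32851 mouse promoter windows of the same length held at least 1. The GC content was 65.3%, 46.0% and 62.7% in Zic1, Zic4 and Zic5, with 31, 8 and 15 CpG dinucleotides, against medians of 52.7% and 7 over all windows. The letters CAGCAGG, found on either strand in 10.5% of windows, and TAATTA, found in 5.29%, were in none of the 3. These letters describe the windows only.

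Sets 1 to 4 held 40, 232, 295 and 51 members, which were 1.31% (0.937 to 1.78), 8.26% (7.27 to 9.34), 8.57% (7.65 to 9.55) and 1.55% (1.15 to 2.03) of their kept spots. Sets 2 and 3 thus held most of the spots, and their intervals lay apart from those of sets 1 and 4. A share of spots depends on the plane and trimming of a section. The Tcf7l2 condition removed 74, 1, 18 and 174 spots that passed on the markers. The members summed to 1649442, 8231583, 13236925 and 1263266 counts, so a level of 1 gene in sets 1 and 4 rests on far fewer counts than in sets 2 and 3. The median count per member spot was 38792, 36467, 42675 and 25949, against 52632, 38421, 45208 and 26452 in other spots. Of 591 barcodes among the members, 27 occurred in 2 sets and 0 in more.

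The rule genes are given as a description, since they chose the spots. Zic1 stood at 529.9, 1122, 978 and 465 counts per 1000000 counts (CPM) in the members of sets 1 to 4 and at 93.5, 45.3, 44.7 and 222 CPM in the other spots. For Prkcd the levels were 238, 283, 276 and 42.0 CPM against 19.3, 8.65, 9.15 and 22.7 CPM. Trpc4 had 74.6, 186, 141 and 87.1 CPM against 15.4, 18.2, 18.0 and 13.3 CPM. Most members of sets 2 and 3, but not all, had a z of at least 1 for all 3 markers. In set 4 a z of at least 1 was found for Zic1 in 32, for Prkcd in 19 and for Trpc4 in 39 of 51 members. Prkcd stood 1.85-fold above its surroundings there. A z of at least 1 for each of the 3 markers was found in 19 of 40, 156 of 232, 221 of 295 and 3 of 51 members. The median mean z was 1.95, 2.99, 2.86 and 1.22, so most members of set 4 lay close to the threshold, as the scatter plot of rule scores shows. The 42 members with a mean z of 1.0 to 1.1 averaged 432 CPM of Zic1, 49.5 of Prkcd and 60.7 of Trpc4. The 63 spots just outside, with a mean z of 0.9 to 1.0, averaged 321, 38.8 and 63.7 CPM.

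**Figure D1:**
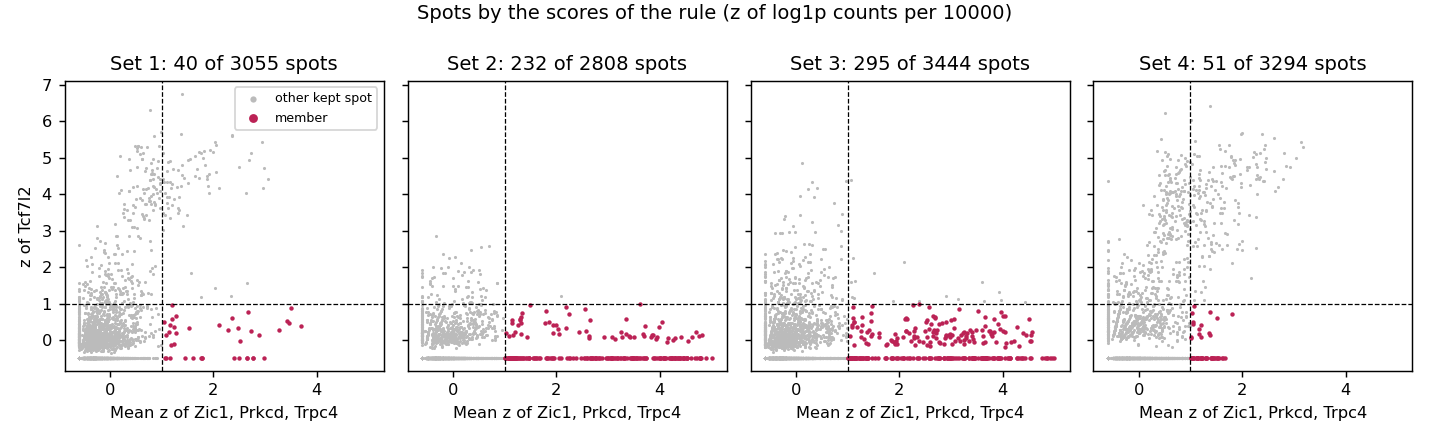
Each point is a kept spot of barcode set 1, 2, 3 or 4, with the mean z-score of Zic1, Prkcd and Trpc4 on the horizontal axis and the z-score of Tcf7l2 on the vertical axis. Members (red) spread to a mean z of about 5 in sets 2 and 3 and reach 1.80 in set 4, where 174 spots with high marker scores lie above the Tcf7l2 limit.

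The label was checked against 10 septal markers that the rule did not use, among them Zic2, Zic4, Zic5, Lhx2, Six3, Homer2, Ptpn3, Crhr2 and Dgkg. A gene was compared where it reached 10 CPM in the members or in the other spots of a set, so a gene that passed on the members alone had to be higher there, and it was called where log2(CPM + 1) differed by at least 1. In set 1, 6 of 9 septal markers compared were at least 2-fold higher in the members, where 5.45% of 10724 genes were. In set 2 it was 7 of 10 (4.18% of 10422 genes), in set 3 again 7 of 10 (4.1% of 10533), and in set 4 it was 2 of 9, with 2 lower (3.16% of 10581 genes higher and 4.18% lower). The median log2 differences of the list were 1.99, 2.89, 2.45 and 0.82, beside medians over all genes of -0.05, 0.09, 0.09 and 0.08. Per spot, after each was thinned to 10000 counts, 50%, 74.0%, 66.8% and 11.9% of members exceeded the 90th percentile of the other spots in summed septal markers. Because the members were selected on Zic1, Prkcd and Trpc4 of the same spots, these counts describe the selection and do not support the label on their own.

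Markers of other areas divided the sets, as the map of marker lists shows. All 13 striatal markers were at least 2-fold lower in the members of sets 1, 2 and 3 and 12 of 12 compared in set 4, where 6.04%, 4.62%, 4.56% and 4.18% of all genes were lower in sets 1 to 4. Of the 10 cortical and hippocampal excitatory markers, 9, 10, 8 and 9 were lower. In set 4, however, all 8 basal forebrain cholinergic markers were at least 2-fold higher in the members, with a summed level of 263 CPM against 64.0 CPM. Few spots carried that sum: at 10000 counts per spot the list had a median of 0.5 and a highest value of 31 counts, 10 of 42 members lay above the 90th percentile of other spots, and TMM scaling left 6 of the 8 calls. In the same set 6 of 8 hypothalamic and preoptic markers compared were higher, with 2582 against 1091 CPM. In set 1 all 10 oligodendrocyte markers were higher, with 68500 against 17965 CPM, and in sets 2, 3 and 4 their summed levels of 6465, 10776 and 10531 CPM stood beside 9925, 9379 and 13286 CPM outside. The choroid plexus list summed to 6645, 214, 16054 and 111 CPM in the members against 7473, 67.7, 5459 and 663 CPM. Its genes were at least 2-fold higher for 0 of 6, 2 of 2, 6 of 6 and 0 of 2 compared, with 1 lower in set 4. The 2 genes of set 2 were Clic6 and Ttr, with Ttr at only 35.5 CPM, and the rest of the list was too low there to be compared. Over all genes 5.45%, 4.18%, 4.1% and 3.16% were higher in sets 1 to 4. Extended amygdala markers summed to 343, 1490.4, 922 and 1971 CPM against 478, 439, 498 and 541 CPM, with 0, 3, 2 and 3 of 6 genes higher and 3, 1, 2 and 0 lower. Those higher were Dlk1 and Ecel1 in sets 2, 3 and 4 and Hap1 in sets 2 and 4. Of the hypothalamic markers 3 of 5 compared were higher in set 2 (Irs4, Nkx2-1 and Peg10) and 1 lower (Oxt). Of the thalamic markers 3 of 7 were higher in set 3 (Slc17a6, Ntng1 and Lhx9) and 2 lower (Prkch and Ramp3). Ventricle lining markers were higher for 5 of 8 genes in sets 1, 2 and 3 and for 0 of 7 in set 4. The data therefore go against the label for the members of set 4, and the members of set 1 also carry a high myelin signal. The members of sets 2 and 3 have the highest septal ratios but also carry markers of other areas. By summed ratio these are above all the extended amygdala in set 2 and the choroid plexus in set 3. The part that these other areas play in any level below was not tested, and in such spots fewer cells of a type and less RNA per cell cannot be told apart.

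**Figure D2:**
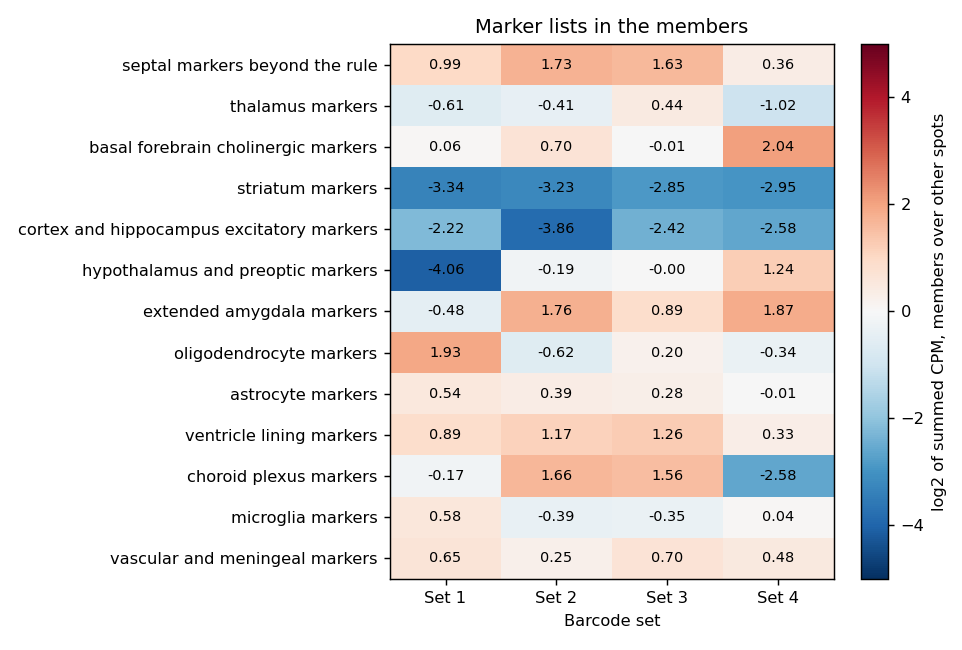
Each cell gives the log2 ratio of the summed CPM of a marker list in the members over that in all other kept spots, for barcode sets 1 to 4 on the horizontal axis and 13 lists on the vertical axis. Septal markers stand at 0.99, 1.73, 1.63 and 0.36, striatal markers lie at -2.85 or lower in every set, oligodendrocyte markers reach 1.93 in set 1 and cholinergic markers 2.04 in set 4.

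Among the transcription factors, the Zic genes beyond the rule were higher in the members. Zic2 was measured at 96.4 (82.0 to 113), 221 (211 to 231), 106 (101 to 112) and 159.9 (139 to 184) CPM in the members of sets 1 to 4, and at 19.5, 13, 8.66 and 67.3 CPM in the other spots. Zic4 was measured at 56.4 (45.5 to 69.1), 48.8 (44.2 to 53.9), 39.4 (36.1 to 43.0) and 19.0 (12.2 to 28.3) CPM in the members, against 6.55, 2.40, 2.32 and 9.90 CPM. Both genes were higher in the members of every set by their counting intervals, and the ratios for Zic4 were 8.61 (6.89 to 10.6), 20.4 (17.3 to 24.0), 17 (14.8 to 19.5) and 1.92 (1.22 to 2.87). Zic5 had 34.6, 43.9, 38.0 and 19.8 CPM against 5.08, 2.45, 2.85 and 10.7 CPM. Zic2, Zic4 and Zic5 were thus higher in the members of each set by their intervals, with Zic4 and Zic5 under 2-fold in set 4. Zic1 chose the spots and is not counted here. The sizes were unequal, since 4.95-fold for Zic2 in set 1 compares with 16.9-fold in set 2 and 2.38-fold in set 4.

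Of a wider list of 25 forebrain transcription factors, which includes the Zic genes, Lhx2 and Six3, 9 of 24, 13 of 25, 11 of 23 and 6 of 24 compared were at least 2-fold higher in sets 1 to 4, and 3, 3, 3 and 4 were lower. Over all genes 5.45%, 4.18%, 4.1% and 3.16% were higher and 6.04%, 4.62%, 4.56% and 4.18% lower in sets 1 to 4. Prdm16, a zinc finger regulator, stood at 38.8 (29.9 to 49.5), 121 (114 to 129), 74.6 (70.1 to 79.4) and 9.50 (4.91 to 16.6) CPM against 7.84, 7.88, 8.11 and 6.57 CPM. Its level was well above the other spots in sets 1, 2 and 3, while in set 4 its interval included the outside level. Sp8, a zinc finger factor of ventral forebrain progenitors and interneurons, had 15.8, 70.6, 23.0 and 26.1 CPM against 3.51, 3.14, 2.59 and 8.62 CPM. The homeobox gene Dlx1, of the family that specifies forebrain GABAergic neurons, had 60.0, 109, 76.8 and 107 CPM against 15.3, 22.2, 17.4 and 34.8 CPM, and Dlx6 had 32.7, 118, 51.5 and 79.2 against 24.6, 44.4, 22.9 and 40.7 CPM. Dlx1 was at least 2-fold higher in all 4 sets and Dlx6 in sets 2 and 3. Foxp1, a factor of striatal projection neurons and cortex, was lower in the members of all 4 sets. Lhx2 had 60.6, 84.7, 51.8 and 24.5 CPM against 55.0, 72.2, 60.6 and 64.8 CPM, and Six3 had 45.5, 184, 104 and 236 against 67.2, 101, 52.7 and 118 CPM. Neither reached the 2-fold call upward in any set, although Six3 came close in sets 3 and 4 (1.98 and 1.99-fold) and was lower in set 1 by its interval.

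Of the remaining septal markers, Dgkg, a diacylglycerol kinase that removes the lipid activator of protein kinase C, was measured at 109 (93.2 to 126), 245 (234 to 255), 176 (169 to 183) and 57.8 (45.3 to 72.7) CPM in the members and at 26.5, 33.0, 28.5 and 41.3 CPM outside. Sets 2 and 3 lay highest, set 1 between, and set 4 only 1.40-fold above its surroundings (1.09 to 1.76). Homer2, a scaffold that couples group I metabotropic glutamate receptors to internal calcium stores, had 52.1, 76.3, 77.1 and 22.2 CPM against 24.9, 31.7, 26.9 and 29.8 CPM, higher in sets 1, 2 and 3 alone. The tyrosine phosphatase Ptpn3 had 77.6, 139, 108 and 30.1 CPM against 77.2, 73.7, 63.4 and 117 CPM. It missed 2-fold in sets 2 and 3, had a ratio interval that included 1 in set 1 and was 0.256-fold in set 4 (0.181 to 0.352). Crhr2, the receptor for urocortins, had 6.67 (3.33 to 11.9), 24.4 (21.2 to 28.0), 21.5 (19.1 to 24.2) and 7.12 (3.26 to 13.5) CPM against 4.19, 2.32, 3.52 and 3.36 CPM, resting on 11, 201, 285 and 9 counts. Its ratios were 10.5 in set 2 (8.69 to 12.8) and 6.12 in set 3 (5.28 to 7.07), whereas those of sets 1 and 4 had intervals that included 1.

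The levels were set beside those of 2 other groups of spots outside the members: cholinergic spots (mean z of Chat, Slc5a7 and Ngfr of at least 1) and the spots that passed the markers but had high Tcf7l2. Zic4 stood at 4.13, 4.36, 2.06 and 6.88 CPM in the cholinergic spots of sets 1 to 4, all below the member levels of the same set. Dgkg stood at 26.1, 28.3, 26.2 and 24.8 CPM there. The high-Tcf7l2 spots, given for sets 1, 3 and 4 because set 2 had 1 such spot, held Zic genes as well. Zic4 stood there at 43.7, 39.2 and 46.3 CPM. The septal markers beyond the rule summed to 854, 636 and 1040 CPM there, against 580, 788 and 606 CPM in the members. In this list the high-Tcf7l2 spots thus lay above the members in sets 1 and 4 and below them in set 3. The high-Tcf7l2 spots parted from the members in other genes. Gad2 was at 72.9, 726 and 50.2 CPM there against 671, 846 and 697 CPM in the members. Slc17a6 was at 627, 105 and 471 against 26.7, 113 and 48.3 CPM. In sets 1 and 4 those spots were rich in the vesicular glutamate transporter of thalamic neurons and poor in Gad2, while the 18 of set 3 had levels close to the members, with Slc17a6 at 105 against 113 CPM.

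Of 4 GABA identity genes 0, 2, 0 and 1 were at least 2-fold higher in the members of sets 1 to 4. The shares of all genes higher were 5.45%, 4.18%, 4.1% and 3.16%. Gad2, which makes GABA, was measured at 671 (632 to 711), 965 (944 to 987), 846 (831 to 862) and 697 (652 to 745) CPM against 516, 377, 442 and 339 CPM, and Slc32a1, which loads it into vesicles, at 76.4 (63.6 to 91.0), 165 (156 to 174), 130.5 (124 to 137) and 106 (88.9 to 126) CPM against 67.8, 73.9, 66.2 and 63.1 CPM. Gad2 was higher in the members than in all other spots of every set by its interval, by 1.30, 2.56, 1.92 and 2.06-fold. Its smallest ratio was in set 1, where the interval for Slc32a1 included 1 (1.13-fold, 0.937 to 1.34). The 4 GABA identity genes summed to 1192, 1807, 1644 and 1353 CPM in the members of sets 1 to 4. In the cholinergic spots they summed to 1359, 1638, 1465 and 1182 CPM, so the members of set 1 lay below those spots. Gad1, the other enzyme that makes GABA, was less than 2-fold apart in every set. Slc17a7, the vesicular glutamate transporter of cortex and hippocampus, had 228, 32.7, 153 and 87.1 CPM against 1166, 1456, 1401 and 1168 CPM. The related Slc17a6 had 26.7, 18.7, 113 and 48.3 CPM against 89.9, 15.6, 31.8 and 91.5 CPM, and set 3 alone was at least 2-fold higher, by 3.57-fold (3.36 to 3.78). After each spot was thinned to 10000 counts, Slc17a6 had a count in 46.4% of the members of set 3 and in 13.7% of those of set 2.

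More neuropeptide genes were lower than higher in the members. Of 18 peptide genes, 15, 15, 14 and 16 were compared in sets 1 to 4, of which 1, 1, 1 and 3 were at least 2-fold higher and 12, 7, 7 and 6 lower, where 5.45%, 4.18%, 4.1% and 3.16% of all genes were higher and 6.04%, 4.62%, 4.56% and 4.18% lower. Pnoc, the precursor of nociceptin, was at least 2-fold higher in all 4 sets and the only one: it had 58.2 (47.1 to 71.1), 140.1 (132 to 148), 104 (98.5 to 109.5) and 124 (106 to 145) CPM against 17.3, 18.6, 21.8 and 30.9 CPM. Penk, the enkephalin precursor, which is abundant in striatum, had 87.9, 151, 49.2 and 95.8 CPM against 653, 793, 702 and 525 CPM. Sst, the somatostatin gene, had 326, 805, 284 and 518 CPM against 499, 834, 333 and 940.0 CPM, within 2-fold of its surroundings in every set. Nts, for neurotensin, had 5.46, 72.9, 5.59 and 13.5 CPM against 18.8, 36.7, 11 and 17.7 CPM and stood above its surroundings in set 2 alone. Cartpt, for the CART peptides, had 35.8, 126, 40.5 and 86.3 against 57.7, 64.1, 71.5 and 57.2 CPM, again with its highest level in set 2.

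Peptide receptor genes were divided. Of 24 genes, 17, 19, 18 and 16 were compared, of which 4, 7, 4 and 3 were at least 2-fold higher in the members and 5, 3, 4 and 2 lower. These counts stand beside 5.45%, 4.18%, 4.1% and 3.16% of all genes higher and 6.04%, 4.62%, 4.56% and 4.18% lower, and no gene of the list was called higher in all 4 sets. Glp1r, the receptor for glucagon-like peptide 1, had 11.5 (6.94 to 18.0), 45.6 (41.1 to 50.4), 51.2 (47.4 to 55.2) and 7.12 (3.26 to 13.5) CPM against 4.11, 2.17, 3.76 and 2.85 CPM. The members of sets 2 and 3 lay far above those of sets 1 and 4, whose levels rest on 19 and 9 counts. Adcyap1r1, the receptor for the peptide PACAP, was more abundant and more even, at 299 (273 to 326), 506 (491 to 522), 489.9 (478 to 502) and 496 (457 to 536) CPM against 219.5, 206, 250.3 and 271 CPM. Oxtr, for oxytocin, had 21.2, 13, 24.8 and 7.12 CPM against 8.49, 6.65, 7.08 and 8.49 CPM, and Mc4r, a melanocortin receptor, 11.5, 7.90, 17 and 0.792 CPM against 3.32, 3.95, 4.28 and 2.73 CPM. Both were at least 2-fold higher in sets 1 and 3. Avpr1a, the vasopressin receptor known from septal work on social memory, had 1, 23, 17 and 3 counts in all members of sets 1 to 4 and was too low to be compared. Oprk1 and Oprd1, the kappa and delta opioid receptors, were at least 2-fold lower in sets 1, 2 and 3.

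Receptors for monoamines differed by gene within each family. Of 24 monoamine and muscarinic receptor genes, 2 of 18, 5 of 16, 5 of 17 and 2 of 17 compared were at least 2-fold higher in the members of sets 1 to 4, and 7, 7, 7 and 5 lower. The shares of all genes were 5.45%, 4.18%, 4.1% and 3.16% higher and 6.04%, 4.62%, 4.56% and 4.18% lower. In sets 2 and 3 the same 5 genes were higher: Htr1a, Htr2c, Htr7, Adra2a and Chrm2. Adra2a, the alpha 2A adrenergic receptor, had 55.8 (45.0 to 68.4), 187 (178 to 197), 129 (123 to 135) and 53.0 (41.1 to 67.4) CPM against 39.5, 38.1, 49.6 and 39.1 CPM. Htr1a, an inhibitory serotonin receptor, had 27.3 (19.9 to 36.5), 53.5 (48.6 to 58.7), 24.6 (22.0 to 27.4) and 17.4 (10.9 to 26.4) CPM against 10.2, 13.7, 9.99 and 14.0 CPM, and Htr2c, which couples to Gq, 122, 113, 203 and 50.7 CPM against 88.3, 35.9, 68.1 and 50 CPM. These 3 genes were higher in sets 1, 2 and 3 by their ratio intervals, and Adra2a in set 4 as well, most of all in set 2 for Adra2a and Htr1a. The muscarinic receptor gene Chrm2 had 18.2, 19.0, 60.8 and 6.33 CPM against 26.4, 8.69, 15.7 and 11 CPM, and Chrm1 and Chrm4 were at least 2-fold lower in all 4 sets.

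Dopamine receptor genes differed in direction. Drd1 had 0, 7, 28 and 6 counts in the members of sets 1 to 4, or 0, 0.850, 2.12 and 4.75 CPM, against 14.8, 17.7, 17.7 and 9.57 CPM outside, and the 0 of set 1 allows up to 1.82 CPM. Drd2 had 11.5, 42.4, 20.8 and 10.3 CPM against 86.5, 116, 87.9 and 48.2 CPM. Drd3, known from the septum and the ventral striatum, had 3, 31, 18 and 4 counts and was too low to be compared. Drd5 had 11.5, 4.25, 6.12 and 11.1 CPM, from 19, 35, 81 and 14 counts, against 5.08, 2.72, 2.82 and 4.43 CPM, so it was higher by its interval in all 4 sets, called at 2-fold in sets 1 and 4 and under the 10 CPM needed for a call in sets 2 and 3. Slc18a2, which loads monoamines into vesicles, was measured at 26.1 (18.9 to 35.1), 28.9 (25.4 to 32.8), 68.3 (63.9 to 72.9) and 24.5 (16.7 to 34.8) CPM in the members and 5.37, 2.62, 4.42 and 4.20 CPM outside. It was higher in all 4 sets, by 4.85 (3.49 to 6.59), 11 (9.22 to 13.2), 15.5 (14.0 to 17.1) and 5.84 (3.91 to 8.43)-fold. The synthesis gene Th had 0.606, 5.47, 2.80 and 26.9 CPM against 10.6, 10.6, 9.75 and 13.4 CPM, lower in sets 1, 2 and 3 and higher in set 4 (2.01-fold, 1.38 to 2.82) by its intervals. Ddc, the next enzyme of the pathway, had 25.5, 14.9, 9.59 and 40.4 CPM against 11, 9.73, 8.98 and 13.1 CPM and was called higher in sets 1 and 4. The dopamine transporter Slc6a3 had 2, 5, 7 and 5 counts. In the cholinergic spots Slc18a2 stood at 13.3, 10.1, 16.9 and 23.9 CPM.

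Genes around the rule's own pathway, from Gq to TRPC channels and protein kinase C, were mostly close to their surroundings. Of 17 genes beyond Trpc4 and Prkcd, 17, 16, 17 and 16 were compared in sets 1 to 4, of which 1, 1, 3 and 1 were at least 2-fold higher and 3, 1, 2 and 4 lower. With 5.45%, 4.18%, 4.1% and 3.16% of all genes higher and 6.04%, 4.62%, 4.56% and 4.18% lower, a count of 1 is near the background. Trpc7, for a channel of the same family but another branch, had 18.8 (12.8 to 26.7), 74.3 (68.6 to 80.5), 51.6 (47.8 to 55.6) and 42.7 (32.1 to 55.8) CPM against 10.6, 12.6, 12.1 and 14.3 CPM. It was higher in all 4 sets by its interval and at least 2-fold higher in sets 2, 3 and 4. The phospholipase C gene Plcb4 had 118, 123, 275 and 90.2 CPM against 95.6, 66.5, 85.8 and 87.4 CPM and reached 2-fold in set 3 alone. Prkch, protein kinase C eta, was lower in all 4 sets, at 3.03, 4.25, 3.85 and 4.75 CPM against 13.9, 13.1, 10.1 and 14.4 CPM.

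**Figure D3:**
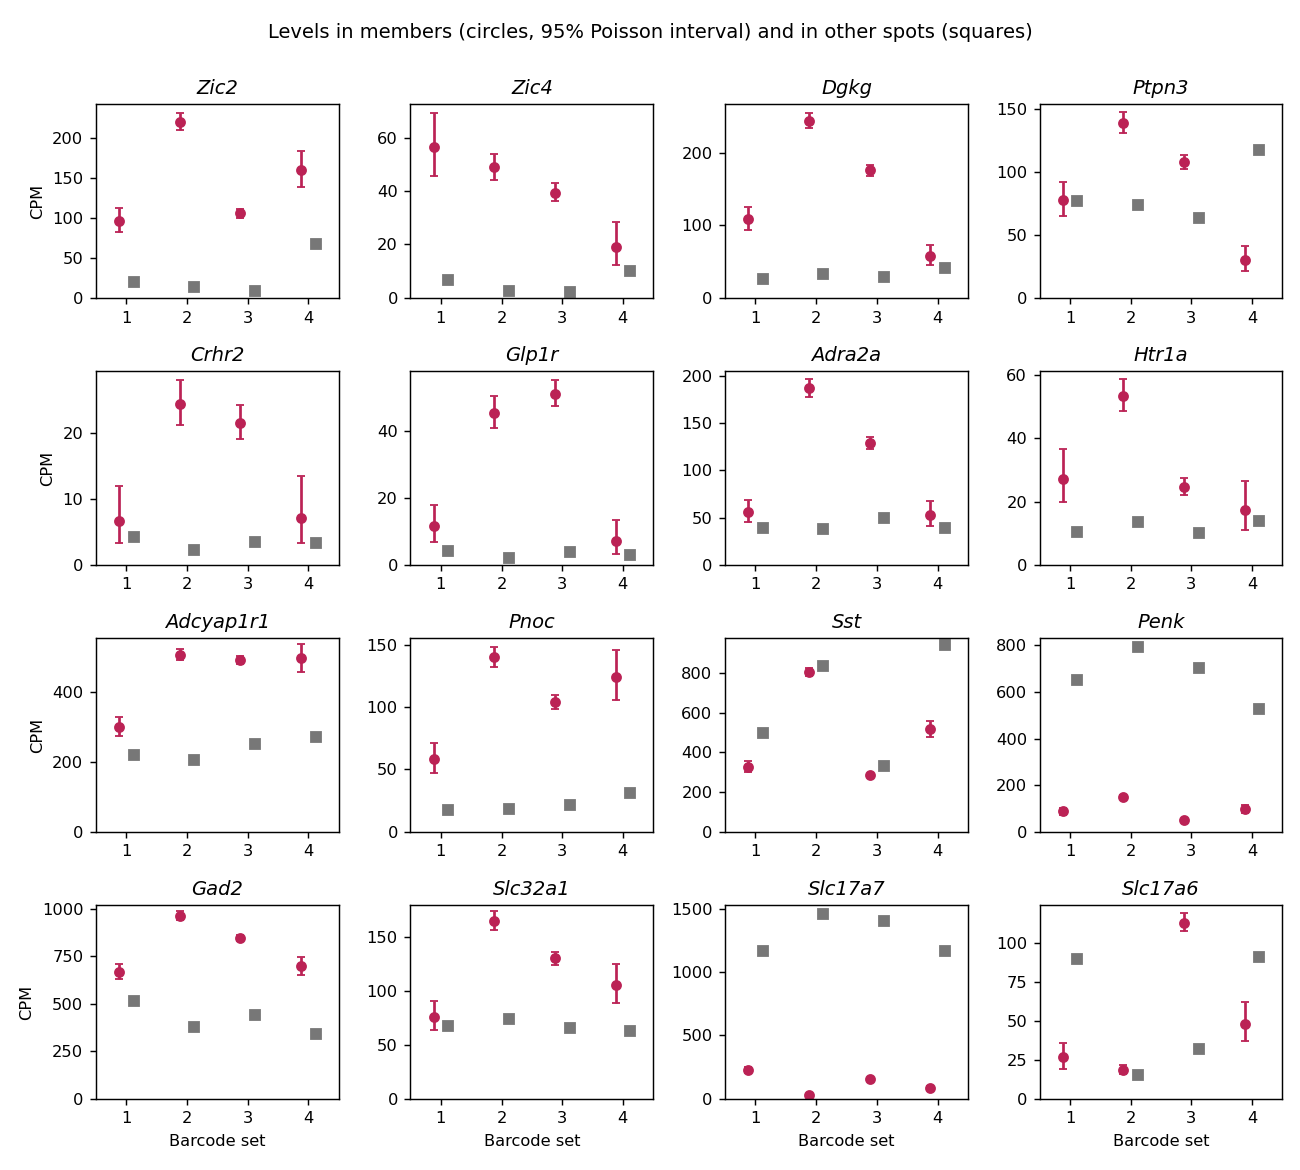
Each panel is a gene, with the barcode set on the horizontal axis and the level in CPM on the vertical axis, which starts at 0. Circles are members with exact Poisson 95% intervals for counting error, and squares are all other kept spots, so that Zic2 and Pnoc lie above the squares in all 4 sets, Penk and Slc17a7 lie under them, and Slc17a6 lies well above in set 3 alone.

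Outside the lists, genes were ranked by their smallest fold over the sets with at least 50 members (2, 3 and 4), with 10 CPM added to both sides. The 12 highest were Tmem255a, Vwa5b1, Magel2, Fam183b, Nnat, Sncg, Zcchc12, Ngb, Lbhd2, Gng4, Gpc3 and Ly6h, with smallest folds of 3.39 to 2.38. Tmem255a had 83.7, 202, 214 and 237 CPM in sets 1 to 4 against 62.3, 42.9, 56.2 and 62.9 CPM. Nnat, an imprinted gene of the neuroendocrine brain, had 461, 1445, 729 and 1892 CPM against 394, 373, 265 and 613 CPM. Magel2, an imprinted gene of the Prader-Willi region, had 23.0, 67.9, 38.5 and 123 CPM against 9.27, 8.37, 7.72 and 16.5 CPM. Ngb, for neuroglobin, had 6.06, 51.9, 38.7 and 79.2 CPM against 8.74, 6.59, 9.65 and 15 CPM. Several of these stood highest in set 4, where the members also had 2582 CPM of hypothalamic markers, and in set 1 Nnat, Vwa5b1, Ngb and Zcchc12 were near or below their surroundings. The 8 lowest were Slc30a3, Rtn4rl2, Kcnh3, Arpp21, Epop, Ankrd33b, Kcnj4 and Gabrd. Slc30a3, the zinc transporter of glutamatergic synaptic vesicles, had 13.3, 7.29, 1.96 and 7.12 CPM against 79.8, 130.5, 112 and 111 CPM. Gabrd, the delta subunit of extrasynaptic GABA receptors, had 15.2, 13.2, 16.4 and 8.71 CPM against 116, 92.0, 116 and 77.1 CPM.

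Ranked over sets 2 and 3 alone, a choice made after the levels in set 4 were seen, the list opened with Lbhd2 and Rasd1, with smallest folds of 14.3 and 12.7. Lbhd2 had 116 (99.96 to 133), 218 (208 to 228), 333 (323 to 343) and 40.4 (30.1 to 53.1) CPM against 9.60, 5.94, 9.53 and 10.5 CPM. Rasd1, a dexamethasone-induced Ras-like GTPase, had 161 (142 to 182), 347 (334 to 359.7), 296 (286 to 305) and 51.5 (39.7 to 65.6) CPM against 24.1, 16.7, 14.1 and 42.3 CPM. Both were also higher in set 1, and in set 4 the ratio interval of Rasd1 included 1 (1.22-fold, 0.936 to 1.55). Prdm12, a zinc finger gene of sensory and hypothalamic neurons, had 29.7, 61.0, 42.0 and 7.12 CPM against 1.54, 1.40, 0.856 and 2.03 CPM. Cacng5, an auxiliary subunit of AMPA receptors, had 132, 125, 226 and 51.5 CPM against 19.7, 14.4, 17.8 and 24.5 CPM, and Shisa6, another, 135, 221, 298 and 26.1 CPM against 24.8, 40.2, 25.8 and 48.4 CPM. The neuropeptide FF receptor gene Npffr1 had 30.9, 34.4, 40.2 and 9.50 CPM against 4.62, 1.66, 2.15 and 3.89 CPM. Lbhd2 stood at 9.68, 8.55, 14.0 and 16.1 CPM in the cholinergic spots of sets 1 to 4.

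The members were not uniform. Thinned to 10000 counts, 604 of them were grouped by their variable genes into 10 subclusters, a step chosen with the data known, and the bar plot of subclusters gives their sets and leading genes. Leading genes define a subcluster and are named only to identify it. Subclusters 1, 2, 3, 4 and 8 each drew over 95% of their spots from 1 set, so set and subcluster cannot be told apart there. Subclusters 2 (80 spots, led by Col25a1, Itpka and Sst, 79 from set 2) and 3 (80 spots, led by Col6a3, Stac2 and Palmd, 78 from set 3) had the highest summed septal markers, 1489 and 1236 CPM. Subclusters 4 (71 spots, led by Baiap3, Crh and Arhgap36, 69 from set 2) and 8 (51 spots, led by Oxtr, Pax6 and Reln, 49 from set 3) had 879 and 785 CPM. Subcluster 1 (90 spots, all from set 3, led by Ctxn3, Spp1 and Ebf3) had 657 CPM. Subcluster 5 (60 spots, 23 from set 2 and 32 from set 3) was led by the choroid plexus genes Ttr and Folr1 and subcluster 6 (53 spots, 27 from set 3 and 25 from set 4) by Oxt, Avp and Trh. Subcluster 7 (52 spots, 38 from set 2 and 10 from set 4) was led by Ngfr, Slc18a3 and Prima1, subcluster 9 (37 spots, 27 from set 1) by the myelin genes Mal, Cldn11 and Mog, and subcluster 10 (30 spots, 17 from set 2) by Hbb-bs, Ptgds and Col1a1.

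**Figure D4:**
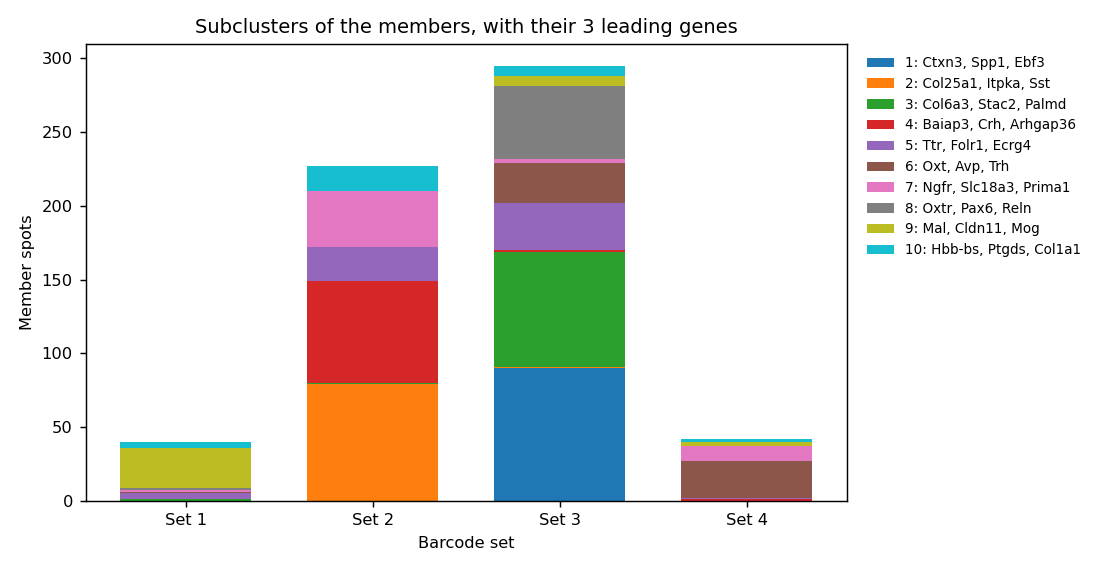
Stacked bars give the number of member spots (vertical axis) in each of 10 subclusters, by barcode set (horizontal axis), for the 604 spots kept at 10000 counts, with 3 leading genes for each. Sets 2 and 3 hold separate main subclusters, 27 of the 40 spots of set 1 fall in subcluster 9, and 25 of the 42 spots of set 4 fall in subcluster 6.

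The subclusters separated the transmitter and receptor genes, whose values are descriptions because genes beyond the rule genes could enter the grouping. Slc17a6 stood at 262 CPM in subcluster 1 and at 1.80 to 63.8 CPM in the other 9. Calb2, for the calcium-binding protein calretinin, stood at 3552 CPM in subcluster 1, and Chrm2 at 124 CPM there. Gad2 was lower in subcluster 1 (594 CPM) than in subclusters 2, 3, 4 and 8 (1024, 1079, 1108 and 1114 CPM). Without subcluster 1, set 3 had Gad2 at 983 CPM and Slc17a6 at 32.8 CPM against 31.8 CPM outside. The excess of Slc17a6 in set 3 thus lay in those 90 spots. Of the thalamic markers, 0 of 6 compared were then higher in set 3 and 1 lower. Over all 10612 genes compared, 566 were higher and 490 lower. Glp1r was at 66.4, 83.6, 71.6 and 59.9 CPM in subclusters 1, 2, 3 and 5 and at 7.71 and 11.4 CPM in 4 and 8. Slc18a2 reached 166 CPM in subcluster 3 and 103 CPM in subcluster 5, where Th had 0.628 and 2.23 CPM. Oxtr reached 75.5 CPM in subcluster 8, and the estrogen receptor gene Esr1 stood at 32.1 and 52.6 CPM in subclusters 4 and 6 and at 8.42 and 3.77 CPM in 2 and 3. Ptpn3, which missed 2-fold over all members, stood at 235 and 228 CPM in subclusters 2 and 3 and at 60.5 and 82.8 CPM in 4 and 8.

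**Figure D5:**
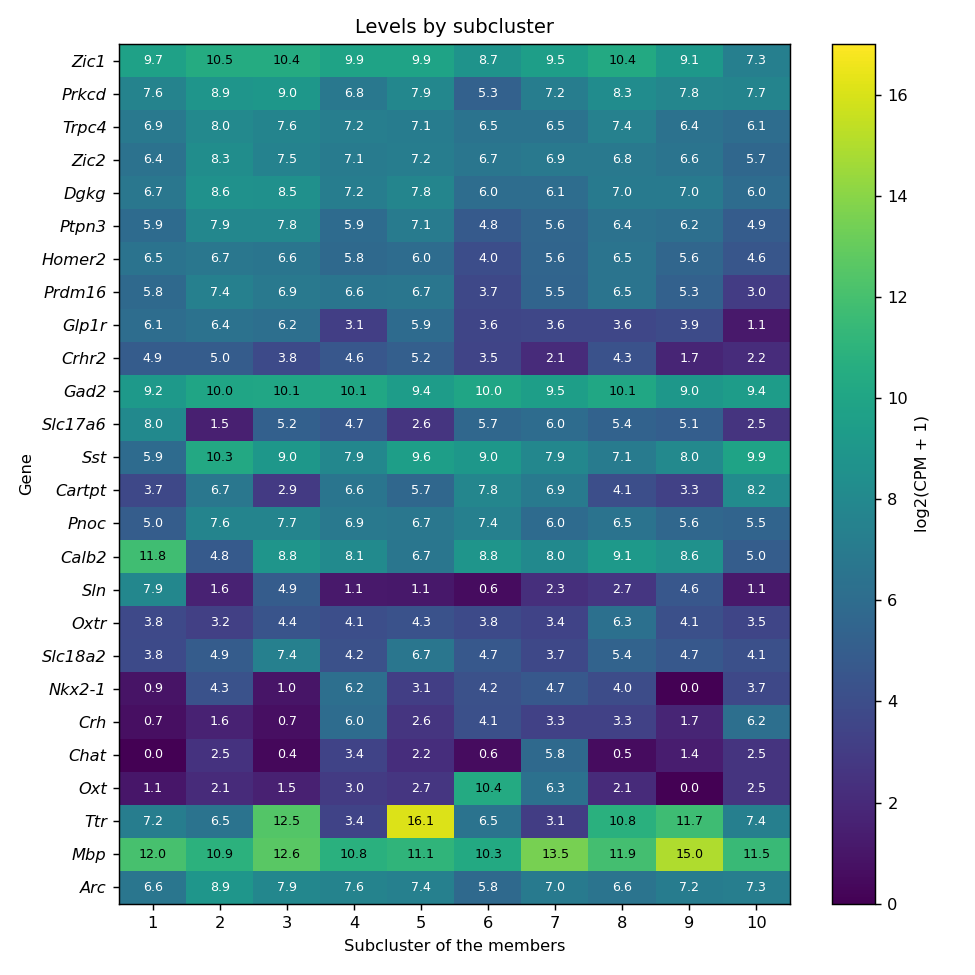
Each cell gives log2(CPM + 1) of a gene (vertical axis) in a subcluster of the members (horizontal axis, 1 to 10), with counts summed over its spots. Slc17a6 and Calb2 are highest in subcluster 1, Slc18a2 in subcluster 3, Chat in subcluster 7, Oxt in subcluster 6, Ttr in subcluster 5 and Mbp in subcluster 9.

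Restricted to subclusters 2, 3, 4 and 8, a choice made after their values were seen, 149 spots of set 2 and 129 of set 3 were left. Of the 10 septal markers, 8 were at least 2-fold higher in each set, where 4.08% of 10323 and 3.68% of 10400 genes were. The list medians were 3.07 and 2.53 on the log2 scale. Septal genes could enter the grouping, so these counts describe the choice and do not support the label. Subcluster 5, which was left out, had 917 CPM of summed septal markers, above the 879 and 785 CPM of subclusters 4 and 8. Dgkg had 278 and 274 CPM, Ptpn3 159 and 172 CPM, and Slc32a1 178 and 179.8 CPM. Hypothalamic markers were still divided, with 3 of 5 compared higher and 2 lower in set 2 and 0 higher and 3 lower in set 3. Extended amygdala markers were still higher for 3 of 6 genes in each set, with 1 and 2 lower and medians of 1.32 and 0.38. Oligodendrocyte markers were lower for 10 of 10 in set 2 and within 2-fold for 10 of 10 in set 3, where 5.91% and 5.09% of genes were lower. Choroid plexus markers were higher for 1 of 2 compared in set 2 and 0 of 5 in set 3. In set 2, Clic6 had 204 against 52.7 CPM and Ttr 15.9 against 10.1 CPM. Ventricle lining markers were higher for 0 of 4 and 1 of 5. The choroid plexus list summed to 72430 CPM in subcluster 5, left out here, and to 72.1 to 5878 CPM in the others.

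Among single spots, the 10 genes most unevenly spread in each of sets 2, 3 and 4, by the smallest variance over mean of these sets, included the myelin genes Mbp, Mobp, Cnp, Cldn11 and Mal, and also Sst, Camk2n1, Nap1l5 and Ptgds. Genes uneven in some sets only, such as Ttr with a variance over mean of 251, 7.57, 1303 and 1.49 in sets 1 to 4, rank lower by that measure. At 10000 counts per spot Mbp had a median of 257, 14, 35 and 20.5 counts in sets 1 to 4 and a highest value of 595, 245, 319 and 612. Sst ran from a median of 4 to a highest value of 58 counts in set 2 and from 1 to 65 in set 3, with a Spearman correlation to Mbp of -0.41 and -0.06 over 227 and 295 member spots. Spots of a set share a library and neighbouring spots share tissue, so such correlations are descriptions.

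Prkcd and Trpc4 helped to choose the spots, which shapes their correlations among them, so the values below are descriptions only. The genes whose thinned counts went most closely with Prkcd over the member spots of sets 2, 3 and 4 were Tmsb4x, Ptn, Ppm1e, Ddn and Luzp2. Tmsb4x, which encodes the actin-binding peptide thymosin beta 4, had Spearman correlations of 0.61, 0.58 and 0.55 over 227, 295 and 42 spots, and the other 4 lay between 0.29 and 0.50. For Trpc4 they were Arf3, Fkbp1a, Enc1, 2010300C02Rik and Ripor2, with correlations of 0.25 to 0.43. Over sets 2 and 3 alone, Rasd1 was among the 5 for both genes, at 0.52 and 0.53 with Prkcd and 0.45 and 0.28 with Trpc4, while in set 4 it stood at -0.19 and -0.07. Spots at one depth with few counts of a gene give weak correlations, and those under about 0.3 are given for completeness only.

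Between sets, the members of sets 2 and 3 were at least 2-fold apart in 869 of 10601 genes (8.2%), 309 higher in set 2 and 560 higher in set 3. Sets 2 and 4 were apart in 693 of 10621 genes (6.52%) and sets 3 and 4 in 1683 of 10807 (15.6%). With 1 section in each set these counts compare sections. Furthest toward set 3 against set 2 were Ttr, at 15594 against 35.5 CPM, Ctxn3, at 326 against 3.64, and Ebf3, at 110 against 1.94, and toward set 2 were Amd1, Fos and Nts. Ttr belongs to the choroid plexus list and made up most of its 16054 CPM in set 3. Ctxn3 and Ebf3 lead subcluster 1. Furthest toward set 4 against set 2 were Avp, at 679 against 2.43 CPM, Oxt, at 1264 against 7.65, and Otp, at 73.6 against 1.09, all from the hypothalamic list, and against set 3 they were the haemoglobin genes Hba-a2 and Hbb-bs and Amd1. Furthest toward set 2 against set 4 were H2-D1, Txlna and Myo5b, and toward set 3 against set 4 Ttr, Sln and Olfr305. Some of these went with the whole section: Amd1 had 0 counts in the members and 0 CPM in the other spots of set 3, Txlna stood at 44.4, 33.0, 28.5 and 2.12 CPM in the other spots of sets 1 to 4, and Olfr305 at 22.9, 14.6, 53.5 and 0.447 CPM.

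Among the immediate-early genes, which mark recent neuronal activity, Fos also went with the section. It had 16.4 (10.8 to 23.8), 127 (119 to 135), 10.3 (8.69 to 12.2) and 124 (106 to 145) CPM in the members and 15.9, 60.5, 9.15 and 87.7 CPM in the other spots, high inside and outside in sets 2 and 4 and low in sets 1 and 3. Arc had 113, 329, 121 and 95.8 CPM against 122, 389, 111 and 489 CPM, and in set 4 the members stood at 0.196 times their surroundings (0.163 to 0.234). Of the 16 genes of this list 13, 16, 12 and 15 were compared. At least 2-fold higher in the members were 1, 2, 0 and 1 (Egr4 in set 1, Fos and Btg2 in set 2, Fosb in set 4). Lower were 3, 3, 2 and 5 (Egr2, Egr3, Arc, Ier2 and Dusp1 in set 4). Of all genes 5.45%, 4.18%, 4.1% and 3.16% were higher and 6.04%, 4.62%, 4.56% and 4.18% lower.

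Celsr3 itself had 17 (11.3 to 24.5), 49.4 (44.8 to 54.5), 32.0 (29.0 to 35.2) and 54.6 (42.5 to 69.1) CPM in the members, from 28, 407, 423 and 69 counts, and 31.9, 46.6, 25.5 and 47.0 CPM in the other spots. The ratios were 0.533 (0.354 to 0.771), 1.06 (0.957 to 1.17), 1.254 (1.13 to 1.39) and 1.16 (0.902 to 1.47), so Celsr3 was lower in the members of set 1 and slightly higher in those of set 3, and the intervals of sets 2 and 4 included 1. The ratio in set 1 rests on 28 counts in 40 spots, and its level there depended on the rule: it was 29.6 CPM without the Tcf7l2 condition and 8.81 CPM with the stricter limit on the mean z. By subcluster it ran from 10.1 CPM in subcluster 9, which had 85921 CPM of oligodendrocyte markers, to 52.0 CPM in subcluster 4. Its paralog Celsr2 had 121, 126, 158 and 134 CPM against 184, 176, 204 and 158 CPM and was lower in the members of all 4 sets by its interval, and Celsr1 had 10.3, 3.28, 7.78 and 3.96 CPM against 4.71, 3.23, 5.94 and 3.06 CPM. Celsr3 levels were not used to assign a genotype to a set.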

How the data were processed

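Visium CytAssist sections of 4 mouse brains were analysed from the table of raw counts per gene and spot that the authors deposited (19465 genes, 12602 spots), made with Space Ranger and Seurat per the submitters' processing notes. Genome build, probe set and spot filter are not given in the sources used here. All values were whole numbers when checked. Barcode endings match no label, so the planned genotype tests were not run, and values are given per barcode set. The members and gene lists were chosen with earlier results of these data known.

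Spots under 500 counts were left out, which removed 1. A level is CPM, a gene's counts summed over spots per 1000000 counts summed there. Levels have exact Poisson, shares exact Clopper-Pearson and ratios exact conditional binomial 95% intervals, for counting error only, and a count of 0 allows 3 counts. Genes with at least 10 CPM inside or outside were compared, and called at 1 on the scale of log2(CPM + 1), which understates changes of low genes. Probes read part of a transcript, so genes cannot be ranked by level, and related genes can share probes. Cholinergic spots are those with a mean z of at least 1 for their markers, and all lists came from hand-written tables of known markers. Named genes were the rule genes, list members, the 12 highest and 8 lowest by smallest fold over sets with at least 50 members (10 CPM added), the 10 with the largest variance over mean at 10000 counts (smallest value over the same sets, mean of at least 0.2), the 3 furthest apart each way between sets, and the 5 closest to Prkcd and to Trpc4 by Spearman correlation. Any other gene was named after its values were seen.

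Subclusters used 1000 variable genes, 15 principal components, 15 neighbours and Leiden clustering (resolution 0.6, seed 0) of members thinned to 10000 counts, and 14 members were too shallow. Zic1, Prkcd, Trpc4, Tcf7l2, a few sex-linked genes and genes of very low mean count were kept out of the variable genes. Tools were Python 3.11.15, numpy 2.4.6, scipy 1.17.1, scikit-learn 1.9.0, leidenalg 0.10.2, igraph 0.11.9 and matplotlib 3.10.9, and edgeR 4.0.16 under R 4.3.3 gave the TMM and RLE factors. Alternatives were other limits of the rule, z-scores within sets, each rule gene left out, a minimum of 2000 counts, both scalings and no gene filter. Tested on simulated data for set 2, 100% of 200 genes changed 4-fold were called among 9995, with 0 unchanged genes called. For set 4 it was 99.0% of 200 among 10279, with 16 unchanged genes called. The simulated counts held counting noise only and no variation between spots or sections, so they do not measure error in the real data. Some listed genes are not reported here.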

Additional observations from a re-analysis of the deposited data

Results flagged for a closer look

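For 3 of 25 gene lists, 1 barcode set stood apart from the other 3 in the summed CPM of the members by Dixon's test. The test was also run on the share of members and on the Celsr3 level, and flagged neither. Some lists share genes, so the comparisons are not independent. The 4 sets mix both genotypes and are not 1 group, and chance alone marks about 1 in 20 such comparisons. Hypothalamic and preoptic markers summed to 2582 CPM in set 4, against 60.6, 280.4 and 278 CPM in sets 1 to 3, with the members of set 4 holding 25 spots of the subcluster led by Oxt and Avp. Oligodendrocyte markers summed to 68500 CPM in set 1, against 6465, 10776 and 10531 CPM. The forebrain transcription factor list summed to 1651 CPM in set 2, against 1193, 1143 and 1122 CPM.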

How the results depend on the processing

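For sets 2 and 3, the members, the genes at least 2-fold apart from other spots, the genes apart between them and the Celsr3 levels stayed within 1.5 times, or within their counting intervals, under each alternative run. Sets 1 and 4 depended on the rule, and the causes were not tested. With z-scores within each set, members numbered 86 in set 1 (684 genes apart) and 91 in set 4. Without Zic1 they numbered 61 (595 genes) and 78 (289 genes). Without the Tcf7l2 condition they numbered 114 (751 genes, Celsr3 at 29.6 CPM) and 225. Set 4 had 128 members with the looser limit on the mean z and 23 with the stricter one, 147 without Prkcd and 85 without Trpc4, and with the stricter limit Celsr3 in set 1 was 8.81 CPM. Sets 2 and 4 were apart in 429 genes with the looser limit, 1091 with the stricter and 401 without Prkcd. With no filter on genes, sets 1 and 4 had 1889 and 1610 genes apart from other spots, sets 2 and 4 were apart in 1808 and sets 3 and 4 in 3373, since more genes are then compared. TMM scaling lowered all log2 differences by 0.04, 0.14, 0.13 and 0.12 in sets 1 to 4, and in set 4 the share of apart genes that were higher moved from 43.0% to 30.3%, 6 rather than 8 cholinergic markers were higher and Gad2 fell under 2-fold. In set 1 that share was 47.4%, and 35.3% without the Tcf7l2 condition. In all, 129 values of these results were within those bounds and 23 were not, and of the list counts and shares 897 were and 147 were not. Subclustering gave 8 groups at resolution 0.3, 12 at 1.0, 10 with seed 1 and 9 with genes centred within sets (adjusted Rand index 0.77, 0.91, 1 and 0.62), alternatives added after seeing the data. No paired analysis was possible because spot names carry no replicate number, and leaving out a replicate could not be run since no set was tied to a mouse. Counts limit sets 1 and 4 most: 3 counts are 1.82 and 2.37 CPM there, and 0.364 and 0.227 CPM in sets 2 and 3.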
